A study of Drosophila melanogaster with 4 samples.

Results

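Acetylation of lysine 9 of histone H3 (H3K9ac) was described here in the outermost 2 Mb next to the telomere of 4 chromosome arms of Drosophila melanogaster. The members are the enriched regions, called clusters below, whose midpoint lies in the first 2 Mb of 2L, 3L or X or in the last 2 Mb of 3R. Replicate 1 held 495 such clusters among 6545 and replicate 2 held 666 among 7629, so that 1161 of the 14174 clusters in the 2 lists (8.19%) were members. The comparison is with the middle of the same arms, meaning all sequence farther than 2 Mb from either assembled end, which held 4335 and 4983 clusters. The 4 libraries came from whole third-instar larvae of the strain Oregon-R (Oregon-R-modENCODE), which is wild type and received no treatment named in the labels. They are 2 ChIP and 2 input libraries, and the cluster lists used here are those of the ChIP libraries and of the replicate set. Whole larvae mix many tissues, and the sex and number of the animals behind a library are not given, so every value is an average over cells. Nothing in the labels tells if the replicates are separate collections of larvae, so the spread between them may be technical.

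H3K9ac is a mark of active chromatin that gathers around the transcription starts of expressed genes, and the same lysine carries methyl groups in silent heterochromatin. Drosophila telomeres are not made of the short repeats that telomerase adds in most animals. They are arrays of the retrotransposons HeT-A, TART and TAHRE, bordered by repeated telomere-associated sequences, and genes placed next to them can be silenced, which is known as telomere position effect. Beyond these repeats the arms turn to ordinary gene-bearing euchromatin.

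Positions are those of FlyBase release 5, and each cluster carries 1 value, called the score, which is the authors' own and behaves as a log2 value. Depth is unknown because read counts are not part of the lists, and no counting interval can be given. How much of the outermost sequence could be mapped, and how far each assembled end lies from the true telomere, is not known here, so distances are from the assembled end. No gene annotation or genome sequence of that release was at hand, so clusters are named by position and no gene is assigned. Replicate 2 listed more clusters than replicate 1 over the whole genome, and the excess was larger near the telomeres. Each value is therefore given for both lists. No p is printed, because an exact permutation test over 2 paired samples cannot go below 0.5, and arms, steps and clusters are not replicates.

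The outermost acetylated regions lay at different depths on the 4 arms. On 3R the first cluster began 10.2 kb from the arm end in replicate 1 and 10.2 kb in replicate 2. On 2L the first cluster began at 17.0 kb in replicate 1 and 17.2 kb in replicate 2. On X it began at 23.0 kb and 23.4 kb. On these 3 arms the replicates placed the first cluster within 0.374 kb of each other. On 3L it began far deeper, at 68.3 kb in replicate 1 and 96.5 kb in replicate 2, and these were different clusters (82.4 ± 20.0 kb, SD, n = 2). The first sequence on 3L that both replicates covered began at 104 kb.

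**Figure D1:**
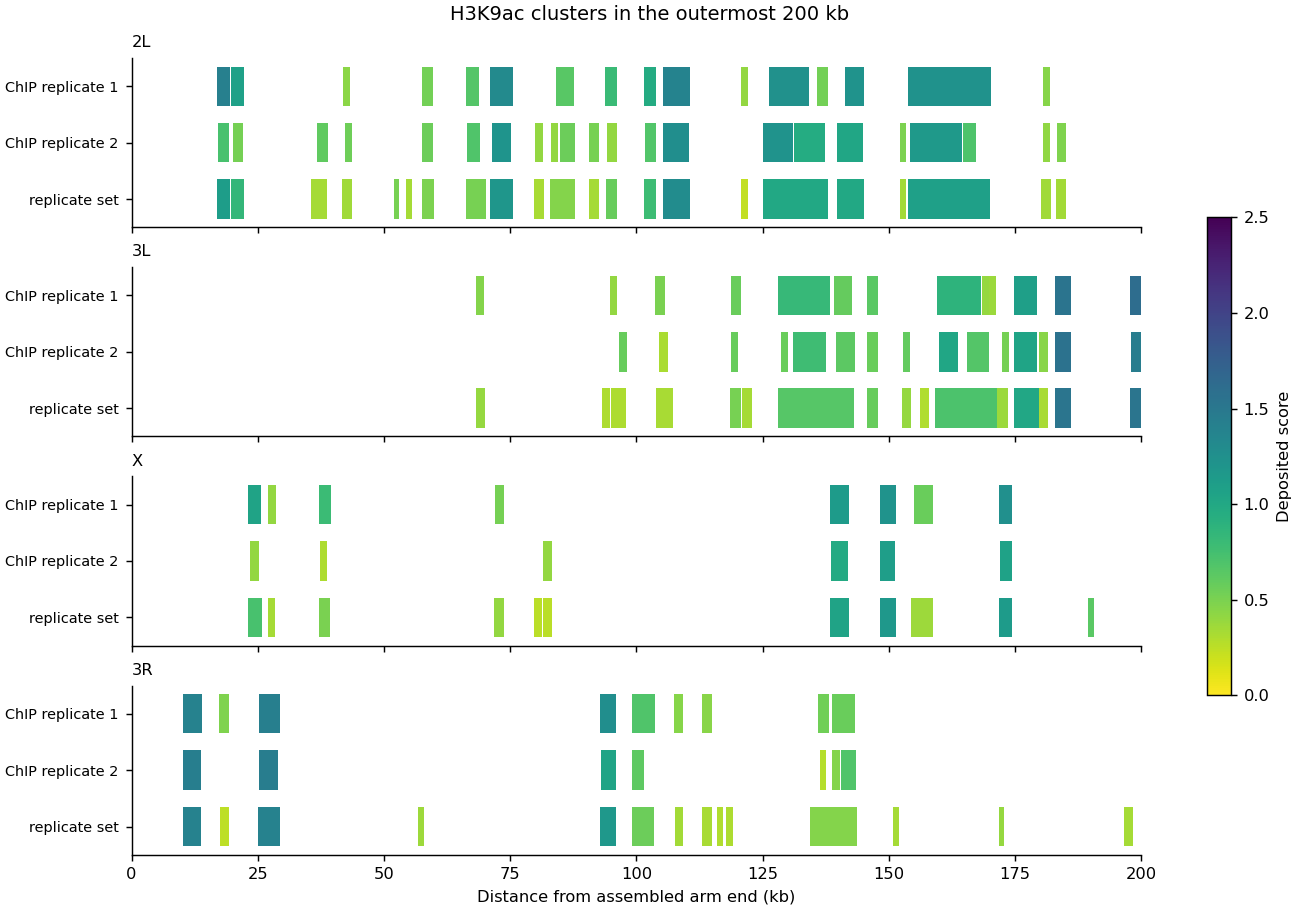
Clusters in the outermost 200 kb of each arm, drawn to scale by distance from the assembled arm end in kb, with 1 row per list and the colour giving the deposited score. The first 100 kb of 3L holds 2 clusters in replicate 1 and 1 in replicate 2, with none shared, while 2L has 8 and 12 clusters there.

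The clusters nearest the end differed in strength between arms and between libraries. The outermost cluster of 3R, at 3R:27891187-27894880 in replicate 1 and 3R:27891336-27894895 in replicate 2, scored 1.40 and 1.44. A second cluster of 3R, unlisted in replicate 2, lay at 3R:27885748-27887657 and scored 0.48. The next, at 3R:27875668-27879898 and 3R:27875993-27879805, scored 1.43 and 1.45. These outer shared clusters of 3R were thus about as strong in one list as in the other. The third of replicate 2, 3R:27809159-27812066, scored 1.04, and its partner 3R:27809115-27812284 scored 1.28. On 2L the outermost cluster, 2L:16957-19450 in replicate 1 and 2L:17188-19347 in replicate 2, scored 1.42 in replicate 1 but 0.73 in replicate 2. The second, at 2L:19750-22225 and 2L:20003-22072, scored 1.07 and 0.52. The third in replicate 1 was 2L:41853-43228, with a score of 0.43, and its counterpart in replicate 2 scored 0.56. The third in replicate 2 was 2L:36650-38840, with a score of 0.61 and no counterpart in replicate 1. On X the outermost cluster, X:23037-25634 and X:23411-25266, scored 1.05 and 0.41. The cluster X:37160-39429 of replicate 1, matched by X:37338-38733 of replicate 2, scored 0.80 and 0.31. The 2 outermost shared clusters of 2L and of X therefore had lower scores in replicate 2, while the third shared cluster of 2L had a higher one. The other clusters among the first 3 of X were each found in 1 list, X:26978-28596 in replicate 1 (0.41) and X:81476-83311 in replicate 2 (0.40). On 3L the outer clusters were weak in both lists. Those of replicate 1, 3L:68286-69870 and 3L:94826-96177, scored 0.47 and 0.40, and neither was listed in replicate 2. The outermost of replicate 2, 3L:96520-98217, scored 0.58 and was not listed in replicate 1. The next, 3L:103699-105586 and 3L:104425-106193, was in both lists and scored 0.50 and 0.32. In replicate 2 the third cluster, 3L:118678-120082, scored 0.58.

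Acetylation was sparse in the first 100 kb of 3L and X, and the arms differed in how far inward coverage stayed low. In the outermost step of 100 kb, clusters covered 2.94% of 3L in replicate 1 and 1.70% in replicate 2. They covered 8.43% and 5.09% of X, and 13.8% and 11.1% of 3R. Sparse steps also occurred in the middles of these arms. Steps under 5% made up 15.1% and 17.6% of the middle steps on 3L and 23.4% and 21.2% on X. On 3R the median of the 20 telomere-side steps was 14.5% and 18.6%, so its first step was near the median in replicate 1 and below it in replicate 2. On 2L the first step was the most covered of the 4 arms, with 21.3% and 25.6%. The second step of 3L already reached 41.2% and 39.7%, so the change there took place within 1 step. On X coverage stayed at or below 13.3% in both lists through the first 300 kb. It rose to 41.3% and 44.2% in the step from 500 to 600 kb. On 3R it stayed at or below 13.9% through the first 300 kb and reached 36.8% and 38.3% in the step from 300 to 400 kb. Pooled over the 4 arms, coverage was 11.6% in replicate 1 and 10.9% in replicate 2 in the first 100 kb. It was 25.4% and 27.5% from 100 to 500 kb, 19.8% and 26.7% from 500 to 1000 kb, 17.5% and 23.0% from 1000 to 1500 kb and 23.0% and 26.0% from 1500 to 2000 kb. Pooled, the first 100 kb was thus the least covered of these 5 bands in both lists. It is also the narrowest band, and the wider ones average dense and sparse steps. Single steps farther in were sparser in both lists on 3 arms. From 900 to 1000 kb 2L had 0% in both and 3R 2.02% and 5.28%, and from 200 to 300 kb X had 5.92% and 3.85%. On 3L the first step was the sparsest. The low rank among bands did not hold on each arm either. On 2L the first 100 kb was covered more than the band from 1500 to 2000 kb (17.7% and 20.2%), and on 3R in replicate 1 more than the band from 1000 to 1500 kb (10.4%). The first 100 kb held 18 and 19 clusters in all, of which 0 reached 5 kb in length. That length was reached by 14.5% and 11.3% of all telomere-side clusters and by 12.7% and 9.89% of those in the middles. So few clusters cannot show a lack of long ones.

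Coverage inside the 2 Mb varied between dense and nearly empty steps, which are ranked here by the mean of the 2 lists. On 2L it ran from 0% in both lists, from 900 to 1000 kb, to 52.2% and 55.8% from 1100 to 1200 kb. The next densest 2L step by that mean, from 800 to 900 kb, had 43.7% and 51.1% and lay beside the empty one, although in replicate 1 the step from 400 to 500 kb was higher, with 44.4%. On 3L the densest step was from 200 to 300 kb, with 42.8% and 47.0%, and the step from 1500 to 1600 kb was as dense, with 43.5% and 46.3%. The sparsest step of 3L was the outermost. On X the densest step was from 1700 to 1800 kb, with 43.8% and 51.2%, closely followed by 1900 to 2000 kb, with 47.9% and 46.9%. The sparsest on X was from 700 to 800 kb, with 3.66% and 5.73%, beside 200 to 300 kb, with 5.92% and 3.85%. The order within both of these X pairs differed between the lists. On 3R the densest step was from 300 to 400 kb, given above, and the sparsest from 900 to 1000 kb, with 2.02% and 5.28%. The step from 900 to 1000 kb was therefore among the 2 sparsest on 2L, 3L and 3R, with 4.99% and 6.76% on 3L. On X the same step had 20.4% and 27.2%.

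**Figure D2:**
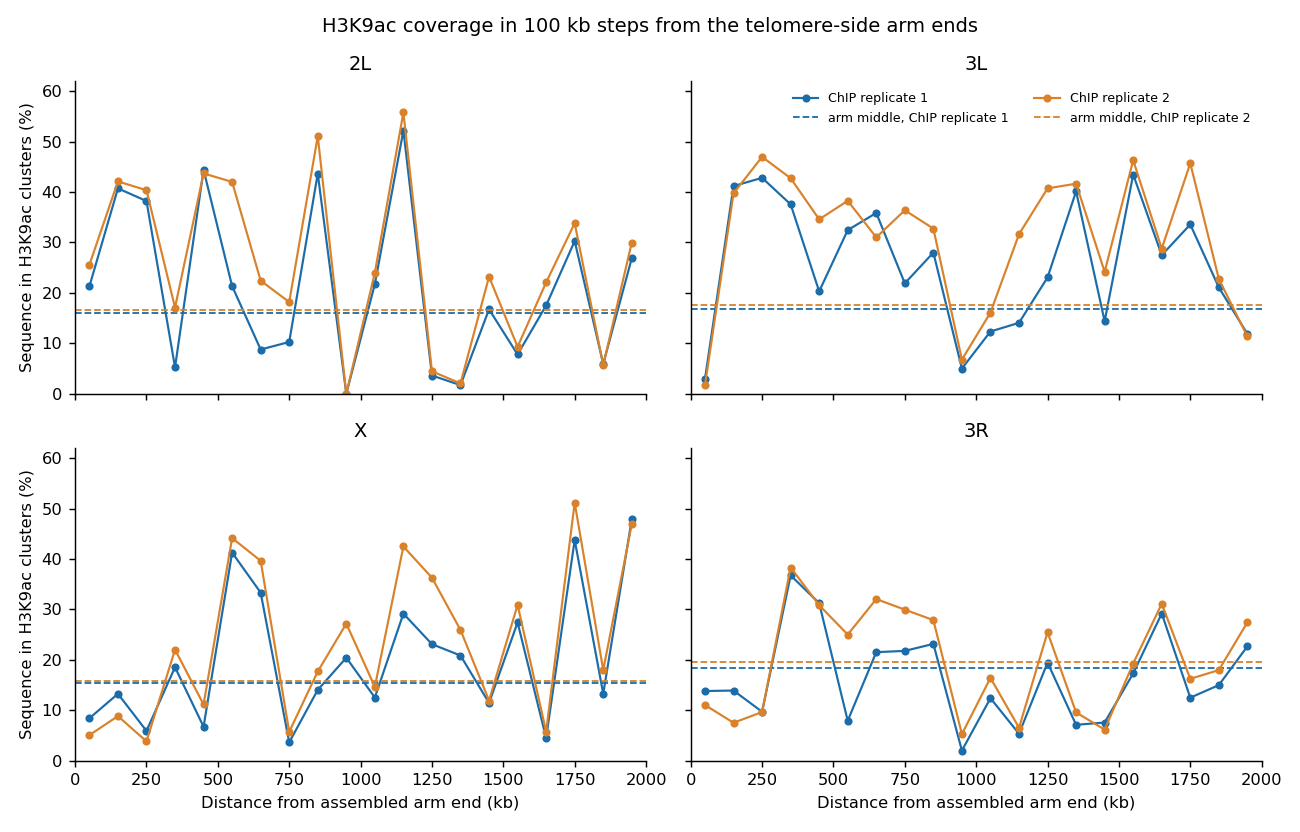
Percent of sequence in H3K9ac clusters (y axis) in 20 steps of 100 kb from the assembled arm end (x axis, kb) for each arm, with 1 line per ChIP replicate and dashed lines for the whole arm middle. Steps above 40% occur on 2L, 3L and X and steps under 5% lie among them, whereas no step of 3R exceeds 38.3%.

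Dense steps were more frequent near the telomeres than in the middles on 3 of the 4 arms. Of the 80 telomere-side steps, 11 in replicate 1 (13.75%) and 16 in replicate 2 (20.0%) exceeded 40% coverage. In the 818 steps of the middles these were 37 (4.52%) and 52 (6.36%). On 3R no telomere-side step exceeded 40%, while 21 and 30 of the 239 middle steps did. Nearly empty steps, under 5%, made up 10.0% and 6.25% of the telomere-side steps and 20.8% and 19.7% of the middle steps. Steps ranked alike in the 2 lists, with Pearson's r = 0.927 and Spearman's rho = 0.939 across 80 steps, a description of steps that share their library and lie next to each other.

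The telomere sides of 2L, 3L and X carried more H3K9ac than the middles of these arms, and that of 3R did not. On 2L coverage was 20.9% in replicate 1 and 25.6% in replicate 2, against 16.0% and 16.6% in the middle. On 3L it was 25.5% and 31.0%, against 16.9% and 17.7%. On X it was 19.99% and 23.5%, against 15.5% and 15.9%. These arms were higher by 6.99 ± 2.95, 11.0 ± 3.35 and 6.07 ± 2.19 percentage points (SD, n = 2), each larger than the spread between the replicates. On 3R coverage was 16.5% and 19.7%, against 18.3% and 19.6%, so the difference of -0.846 ± 1.36 points lay within the spread. Over the 4 arms the telomere sides were covered to 20.7% and 24.95% (22.8% ± 2.99) and the middles to 16.8% and 17.6% (17.2% ± 0.552). The difference was 3.94 points in replicate 1 and 7.39 points in replicate 2 (5.66 ± 2.44, SD, n = 2).

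Clusters were more numerous on the arms where coverage was higher, while over the 4 arms the typical cluster was about as long as in the middles. There were 61.9 clusters per Mb at the telomere sides in replicate 1 and 83.25 in replicate 2, against 52.9 and 60.9 in the middles, a difference of 15.7 ± 9.52 per Mb (SD, n = 2). The density was highest on 3L, with 79.5 and 106 per Mb, against 55.9 and 63.7 in its middle. On 2L it was 58.5 and 86.0 against 51.1 and 58.9, and on X 58.0 and 70.5 against 47.7 and 52.4. On 3R it was 51.5 and 70.5 against 55.9 and 66.5, lower than the middle in replicate 1 and higher in replicate 2. The median length was 2535 bp for replicate 1 and 2225 bp for replicate 2, against 2547 bp and 2307 bp in the middles, and the difference of -47.0 ± 49.5 bp (SD, n = 2) was within the spread between the lists. On 3R the typical cluster was shorter in both lists, with 2438 bp and 2154 bp against 2677 bp and 2350.5 bp (-217.75 ± 30.1 bp). The pooled median score was 0.73 and 0.65 against 0.76 and 0.66. On X it was 0.99 and 0.77, in an arm whose middle was also high at 0.91 and 0.80. On 3R it was 0.60 and 0.61, below its middle in both lists (0.75 and 0.65).

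**Figure D3:**
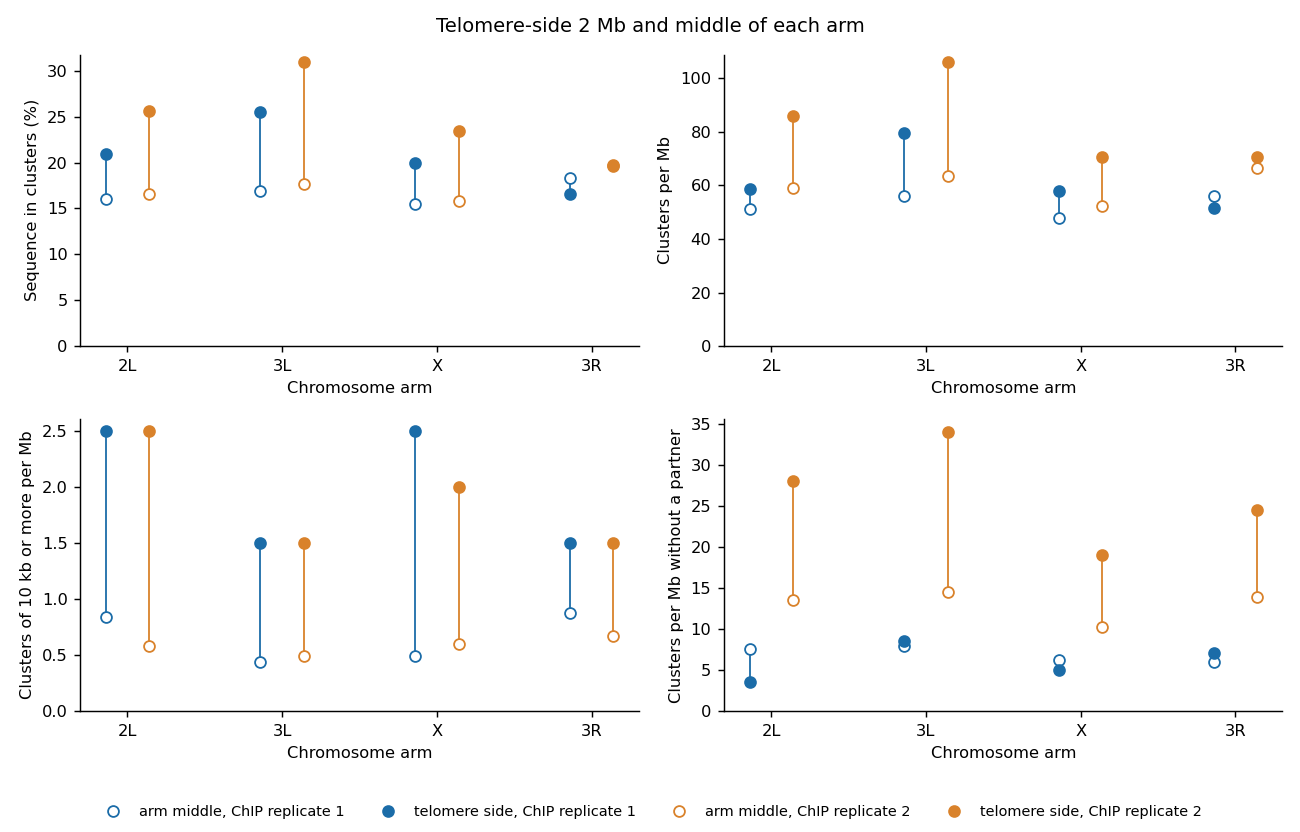
Telomere-side 2 Mb (filled circles) and arm middle (open circles) of each arm in both ChIP replicates, for percent of sequence in clusters, clusters per Mb, clusters of 10 kb or more per Mb and clusters per Mb without a partner in the other list. Clusters of 10 kb or more are denser at the telomere side in all 8 pairs, and clusters of replicate 2 without a partner in all 4 arms.

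The arms also vary along their middles, and windows of the same size show by how much. The middles hold 39 full windows of 2 Mb. On 3L the telomere-side window exceeded all 10 middle windows of its arm in both lists, the highest of which were covered to 22.9% and 22.6%. On X it exceeded all 9, whose highest were 17.7% and 21.1%. On 2L it exceeded 8 of 9 in replicate 1 and 9 of 9 in replicate 2. On 3R it exceeded 3 and 4 of 11. In clusters per Mb the rank of 2L was weaker in replicate 1, where the telomere side exceeded 5 of 9 windows, against 9 of 9 in replicate 2. In that measure 3L exceeded 10 of 10 in both lists, X 9 and 8 of 9 and 3R 3 and 7 of 11. A rank among windows is a description of these lists and no test.

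Clusters near the telomeres stood closer together in replicate 2, and in replicate 1 the median spacing was nearly that of the middles. The median gap between neighbours was 4.63 kb in replicate 1 and 3.13 kb in replicate 2, against 4.70 kb and 4.23 kb in the middles. The difference of -0.586 ± 0.734 kb lay within the spread between the lists. On 2L the gap was shorter than in the middle in both, at 3.66 kb and 2.72 kb against 4.68 kb and 4.27 kb. On X it was also shorter in both, at 4.10 kb and 3.09 kb against 5.03 kb and 4.85 kb. On 3L and 3R the lists went opposite ways. There the gap was 5.46 kb and 6.44 kb in replicate 1, against 5.02 kb and 4.51 kb, and 3.24 kb and 3.34 kb in replicate 2, against 4.18 kb and 3.84 kb.

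**Figure D4:**
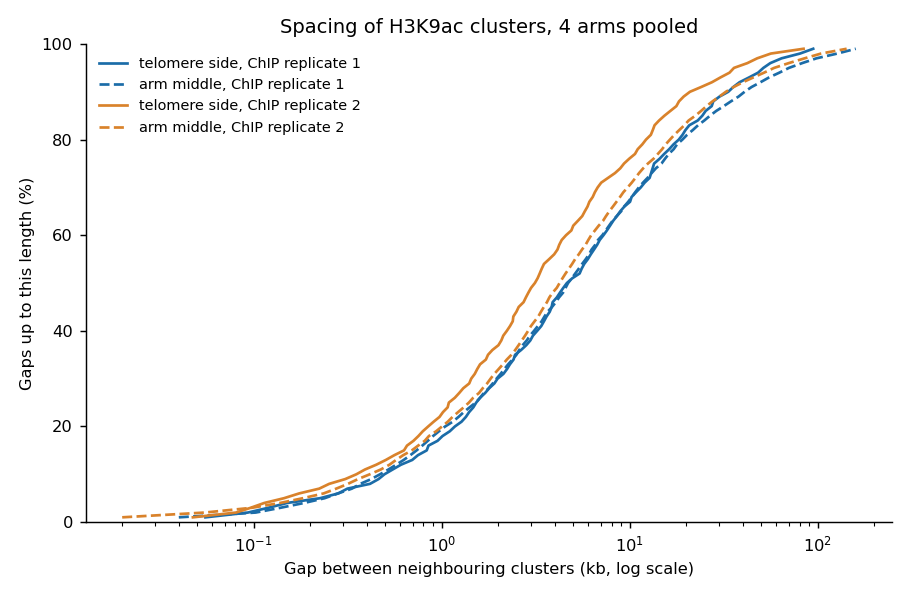
Cumulative percent of gaps (y axis) up to a given length in kb (x axis, log scale) between neighbouring clusters at the telomere sides (solid) and in the arm middles (dashed), for each ChIP replicate with the 4 arms pooled. The replicate 2 telomere-side curve lies to the left, with a median of 3.13 kb against 4.23 kb in the middles, and the replicate 1 curves nearly coincide at their medians.

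Long gaps were scarcer near the telomeres in both lists. Gaps of 40 kb or more made up 7.54% of 491 gaps in replicate 1 and 4.23% of 662 in replicate 2, against 10.3% and 7.99% in the middles. Stretches of 40 kb or more without a cluster in either list took up 23.7% of the telomere-side sequence, in 27 stretches, and 40.5% of the middles. The share was smaller than in the arm's own middle on all 4 arms: 27.3% against 41.5% on 2L, 12.9% against 36.5% on 3L, 27.8% against 46.5% on X and 26.9% against 38.4% on 3R. The longest such stretch was 155 kb on 2L, from 1241786 to 1396504, and the next on that arm was 131 kb, from 1752978 to 1883972. On 3R the longest were 123 kb, from 27638841 to 27761494, and 106 kb, from 26756022 to 26862024. On X they were 90.3 kb, from 702120 to 792387, and 78.0 kb, from 841930 to 919904. On 3L the longest was the outermost 68.3 kb of the arm itself, followed by 50.2 kb from 1889997 to 1940188. Stretches were assigned by their midpoint, and a longer one of 161 kb on 3L, from 1970666 to 2131477, crossed the 2 Mb line and was counted with the middle. In the middle of 2L, 7 of 82 stretches of 40 kb or more were longer than 155 kb, and in that of 3R 18 of 105 were longer than 123 kb. In the middle of X 38 of 92 were longer than 90.3 kb, and in that of 3L 40 of 97 were longer than 68.3 kb.

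Very long clusters were denser at the telomere side than in the middle on all 4 arms. Clusters of 10 kb or more numbered 16 in replicate 1 and 15 in replicate 2, which is 2.00 and 1.875 per Mb, against 0.672 and 0.586 per Mb in the middles. That is 3.09 ± 0.156 times the density of the middles (SD, n = 2). By arm there were 5 and 5 on 2L, 3 and 3 on 3L, 5 and 4 on X and 3 and 3 on 3R. The counts are small, and of the 39 middle windows of 2 Mb, 6 in replicate 1 and 5 in replicate 2 held at least as many as the telomere side of their arm. On 2L the window from 4 to 6 Mb held 5 in each list, on 3L that from 16 to 18 Mb held 3 in each, and on 3R that from 2 to 4 Mb held 3 and 4. None of the X windows did. On 3R the excess was the lowest, 1.97 ± 0.377 times. These clusters held 12.9% and 10.3% of the covered sequence, against 4.85% and 4.04% in the middles. Shorter classes rose less: clusters from 5000 to 9999 bp were 1.16 and 1.38 times as dense as in the middles, and clusters from 1301 to 2000 bp 1.19 and 1.45 times. All clusters of 5 kb or more together reached 9.00 and 9.375 per Mb, against 6.70 and 6.02, with 2L at 12 and 11.5. On 3R they were sparser than in the middle, at 6.50 per Mb in both lists against 8.24 and 7.32.

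The long clusters were marked in both libraries, as were all clusters of 10 kb or more in the middles. None lay in the first 100 kb, but at their low density so short a stretch would hold few or none. Their absence there is therefore no sign of a distance from the end. In the first 1 Mb lay 10 of 16 in replicate 1 and 9 of 15 in replicate 2. The outermost began 128 kb from the end of 3L in replicate 1 and 154 kb from the end of 2L in replicate 2. The other list covered at least 72.2% of each long cluster of replicate 1 and at least 64.6% of each of replicate 2. It often cut them up, since 8 of 16 and 8 of 15 met more than 1 cluster of the other list. Their median score was 1.16 and 1.17, against 1.23 and 1.31 for clusters of 10 kb or more in the middles. Sequence covered in both replicates in runs of 10 kb or more formed 9 regions, or 1.12 per Mb against 0.330 in the middles.

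The longest regions covered in both replicates were spread over the 4 arms. On X the longest was 16.5 kb, X:652855-669379, with scores of 1.45 and 1.40, followed by 11.9 kb at X:1972920-1984829 (1.11 and 1.38) and 9.89 kb at X:1766029-1775916 (2.00 and 1.97). On 3L it was 15.0 kb, 3L:539066-554105, with 0.99 and 0.86, and the next were 3L:830675-839606 (8.93 kb, 1.68 and 1.72) and 3L:1512904-1519704 (6.80 kb, 1.54 and 1.23). On 2L a region of 14.6 kb, 2L:1406599-1421148, scored 0.66 and 0.79, the lowest of these 12 regions in replicate 1 and in replicate 2. The next on 2L were 2L:1721595-1732992 (11.4 kb, 1.36 and 1.17) and 2L:476800-487722 (10.9 kb, 1.17 and 1.21). On 3R they were 3R:27424208-27438315 (14.1 kb, 1.60 and 1.48), 3R:27042474-27052562 (10.1 kb, 1.94 and 1.69) and 3R:26630976-26638541 (7.57 kb, 1.14 and 0.87). Apart from 2L:1406599-1421148 in replicate 1, these regions scored above the telomere-side medians of 0.73 and 0.65 in both lists.

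The highest score on each arm belonged to a cluster under 5 kb. On 2L the top cluster of both lists was 2L:558698-561329 in replicate 1 and 2L:558715-561335 in replicate 2, with 2.23 and 2.44. On 3L both lists again agreed on the top cluster, 3L:1616526-1619934 and 3L:1616519-1619951, with 2.36 and 2.25. On 3R it was 3R:26031814-26035605 and 3R:26032609-26035589, with 2.23 and 2.48. These 3 clusters were between 2621 and 3792 bp long. On X the lists differed in the order of the top: X:527785-532776 led replicate 1 with 2.10, where its partner scored 1.75 and ranked 9 on that telomere side. X:828600-832304 led replicate 2 with 2.22, where its partner scored 2.06 and ranked 3. Both lists put a long cluster second on X, X:1369831-1378271 and X:1369226-1378238, with 2.06 and 2.17. Second on the other arms were 2L:291533-296994 (2.13), 3L:222885-227104 (2.24) and 3R:27042470-27052562 (1.94) in replicate 1, and 2L:1978952-1983807 (1.87), 3L:1666659-1669568 (1.94) and 3R:26252224-26254797 (1.90) in replicate 2.

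The replicates differed near the telomeres mainly through clusters of replicate 2 that had no counterpart. A cluster is called partnered where it overlaps the other list by at least 1 bp. Partnered clusters had nearly the same density in the 2 lists, 55.9 per Mb in replicate 1 and 56.9 in replicate 2, against 46.1 and 47.7 in the middles. They were denser at the telomere side by 9.48 ± 0.450 per Mb (SD, n = 2), again with 3R the reverse, at 44.5 and 46.0 against 49.99 and 52.6. Clusters without a partner stood at 6.00 per Mb in replicate 1, against 6.86 in the middles, but at 26.4 per Mb in replicate 2, against 13.1. In replicate 2 this excess was found on every arm, with 28.0 on 2L, 34.0 on 3L, 19.0 on X and 24.5 on 3R, against 10.2 to 14.5 in their middles. Single middle windows of 2 Mb can exceed this, as 1 of 39 did, on X from 18 to 20 Mb with 25.5. The partnered share was accordingly 90.3% in replicate 1, above the 87.0% of the middles, and 68.3% in replicate 2, below the 78.4% of the middles.

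The unpartnered clusters of replicate 2 were short and of low to middling score. There were 211 of them, with a median length of 1639 bp, a median score of 0.57 and a range of scores from 0.31 to 0.89. Of these, 196 (92.9%) overlapped a cluster of the replicate set, and 63.5% lay within 5 kb of a cluster of replicate 1. Those of the middles were much the same in kind, with a median length of 1558 bp, a median score of 0.52, 90.1% in the replicate set and 55.8% within 5 kb. None of the 211 scored above 1, while 1 of those in the middles did (1.03). All 174 telomere-side clusters above 1 in replicate 2, and all 181 in replicate 1, had a partner (100%). In the middling class, from 0.5 to 1, 58.4% of 392 clusters had a partner, against 75.5% of 2533 in the middles. In replicate 1 the same class had 92.6% of 216 and 87.4% of 1882. The highest-scoring cluster without a partner was X:1140345-1143819 in replicate 2 (0.89) and X:1462917-1464245 in replicate 1 (0.86).

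The extra clusters of replicate 2 were spread unevenly over the telomere sides. In the first 100 kb each list had 5 unpartnered clusters in all, but on 2L replicate 2 had 3 there and replicate 1 had 0. From 500 to 1000 kb replicate 2 had 73, or 36.5 per Mb, and replicate 1 had 16, or 8.00 per Mb. Coverage was higher in replicate 2 in 64 of the 80 steps, higher in replicate 1 in 15 and equal in 1. The widest gap was 20.7 points, from 500 to 600 kb on 2L, where replicate 1 covered 21.3% and replicate 2 42.0%. On 3L the steps from 1100 to 1200 kb and from 1200 to 1300 kb differed by 17.6 and 17.7 points, and on 3R the step from 500 to 600 kb by 17.1 points. Replicate 1 was furthest ahead on 3R from 100 to 200 kb, with 13.9% against 7.54% in replicate 2. In all, replicate 2 covered 1996 kb of the telomere sides and replicate 1 covered 1658 kb, 1.204 times as much, at mean scores of 0.81 and 0.90. Unpartnered clusters held 389 kb in replicate 2 and 81.2 kb in replicate 1.

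The mean score difference between paired clusters was larger in the first 100 kb than farther in, on few pairs. Over 353 pairs in which each cluster met exactly 1 of the other list, the score of replicate 1 minus that of replicate 2 was 0.0081 ± 0.162 (SD over pairs), against 0.04 ± 0.16 over 3221 pairs in the middles. Within the first 100 kb it was 0.24 ± 0.30 over 12 pairs, of which 7 lay on 2L and none on 3L. Of these pairs 58.3% were higher in replicate 1, against 60.4% in the middles and 48.7% of the 341 telomere-side pairs farther in. That direction was thus no more common near the end than in the middles, and 12 pairs are too few for a finer comparison. From 100 to 500 kb the mean difference was 0.04 ± 0.15 over 84 pairs, and in the 3 bands behind it lay between -0.016 and -0.012. The largest of these 12 differences were those of the outermost clusters of 2L and X, with 0.69 and 0.55 on 2L and 0.64 and 0.49 on X. A pair of 2L at 95.1 kb had 0.41 and one of 3R at 94.4 kb had 0.23. Single pairs farther in were as large, with -0.64 on X at 1589 kb and 0.52 on 3L at 593 kb. The 2 outermost pairs of 3R, nearer still to an end, had -0.05 and -0.03. Clusters are not replicates, the lists were called separately, and a score difference between lists is no measured difference in acetylation.

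**Figure D5:**
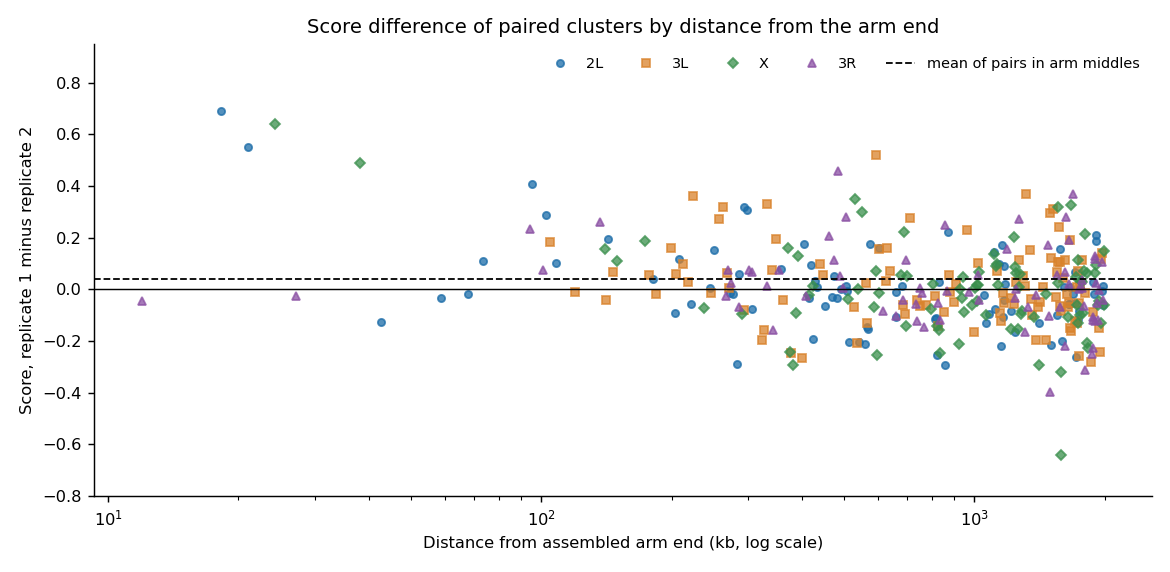
Score of replicate 1 minus score of replicate 2 (y axis) for each of the 353 paired clusters against distance from the assembled arm end (x axis, kb, log scale), with symbols by arm and the mean of the arm middles dashed. The 2 outermost pairs of 2L and of X lie between 0.49 and 0.69, those of 3R near 0, and the rest scatter around 0 with single pairs at -0.64 on X and 0.52 on 3L.

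The list of the replicate set covered more sequence than either replicate list. It held 827 telomere-side clusters, covering 34.2%, against 24.9% in the middles. On 3R it covered 29.0%, against 26.4%, so in this list that arm too was higher at the telomere side. Of its clusters, 390 overlapped both replicate lists, 43 replicate 1 alone and 159 replicate 2 alone. The last were 19.875 per Mb, against 10.9 in the middles. It listed 31 clusters of 10 kb or more, 3.875 per Mb against 1.75, the longest being 25832 bp on X. This list comes from the same libraries and is no independent support.

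Clusters on the 2 sides of the 2 Mb line had overlapping scores. The 8 clusters just inside it, 1 for each arm and list, began between 1967 and 1999 kb from the end and scored from 0.39 to 1.03. The 8 just outside began between 2012 and 2143 kb and scored from 0.41 to 1.09. The median score was 0.69 inside and 0.83 outside, and the longest cluster was 5741 bp inside and 11094 bp outside. On 3L the line falls in the stretch of 161 kb without a cluster.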

How the data were processed

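The 3 deposited GFF3 lists hold regions of significant enrichment, with start, end and 1 score per region, on FlyBase release 5 per the file headers. The submitters' processing notes name Bowtie 0.12.7, a read aligner. The caller, its threshold, the use of the input and the joining of replicates were not given in the sources used here. Tied values gave the scale of the authors' deposited score. Of all pairs among its 40 commonest values, 735, 769 and 732 of 780 differences in replicate 1, replicate 2 and the replicate set were log2 of a ratio with a denominator up to 5000 (relative tolerance 1e-11). With natural log or log10 no more than 1 was.

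Ends were read as inclusive. Clusters belong to a window by their midpoint, and coverage counts bases inside the window. Gaps lie between neighbouring members. Values were computed per list and arm with Python 3.11.15, NumPy 2.4.6 and pandas 2.3.3, and are given as mean ± SD over the 2 ChIP replicates. The interval code was tested on simulated lists with known density, length and overlap. The input libraries' processed data were not analysed here. Named regions follow a rule: on each arm the first 3 clusters of each list, the 3 longest regions covered in both, the 2 highest scores of each list, the 2 longest unmarked stretches, the highest and lowest 100 kb steps, the clusters at the 2 Mb line and the highest score without a partner. The members, the measures and this rule were chosen with earlier results of these data known. Steps with the widest differences between replicates, other steps named and the class of 10 kb or more were added after the values were seen. Depth is unknown.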

Additional observations from a re-analysis of the deposited data

Results flagged for a closer look

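In the list of the replicate set, 235 telomere-side clusters (28.4% of 827) overlapped neither replicate's list and so stand outside the comparisons above. Their median score was 0.36 and their median length 1288 bp, and 119 fell below 1301 bp, the minimum length in the replicate lists. They stood at 29.4 per Mb, against 23.7 in the arm middles, where they made up 28.5% of the list. No group had enough samples for a check of samples that stand apart.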

How the results depend on the processing

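No paired analysis was possible because the input libraries, which share the replicate numbers of the ChIP libraries, were not analysed here. Telomere side and arm middle were compared within each ChIP list. Apart from leaving out a replicate, 47 differences between telomere side and arm middle were recomputed. Of these, 33 moved by less than the SD between replicates, 11 moved by more and 3 changed sign. For clusters of 10 kb or more that SD was only 0.028 per Mb, so even a small change there counted as a move. Leaving out 1 of 2 replicates cannot move a mean by an SD, so only its sign and range are read here, and 1 of 16 such values changed sign. With each replicate left out in turn, the difference in covered share ran from 3.94 to 7.39 points, in clusters per Mb from 8.93 to 22.4, in median gap from -1.11 to -0.067 kb, in clusters of 5 kb or more from 2.30 to 3.35 per Mb, in those of 10 kb or more from 1.29 to 1.33 per Mb, in median length from -82.0 to -12.0 bp and in median score from -0.034 to -0.012. The partnered share changed sign, with -10.1 points without replicate 1 and 3.27 points without replicate 2. In the replicate-set list the differences were 9.26 points in coverage, 5.16 per Mb for 5 kb or more, 2.13 per Mb for 10 kb or more, 48.0 bp in length (changed sign) and -0.0019 in score. Among the top 50% of clusters by score they were -1.59 kb in gap, 48.25 bp in length and 0.0061 in score (both changed sign) and 1.196 per Mb for 10 kb or more. In the first 1 Mb they were -0.039 in score and 1.75 per Mb for 10 kb or more. The latter was 1.41 without the first 100 kb, 1.63 with clusters under 1 kb apart joined and 1.18 without X. Median length and score thus had no stable direction. The cause of these changes was not tested. The unknown depth limits what can be said of weak clusters.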
